A study of Mus musculus with 24 samples.

Results

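The effect of diabetes on the neuronal layer of the retina was measured in 6 NeuN+ regions of mouse retinal sections, taken as all regions whose labels name retinal neuronal cells. They are 6 of the 24 regions of the series, the other 18 being CD31+ microvascular endothelial cell (MEC) regions of the retina, the kidney and the heart (retMECs, renMECs and carMECs). The neuronal regions comprised 3 from diabetic and 3 from non-diabetic mice. All mice were male C57BL/6J. Diabetic mice had received streptozotocin at 50 mg/kg in citrate buffer by intraperitoneal injection over 5 days from 8 weeks of age, and non-diabetic littermates had received citrate buffer alone. Eyes were taken 2 months after the injections, fixed in formalin and embedded in paraffin. Each condition had 3 mice, and the labels do not state which mouse a region came from, so p-values measure the spread between regions. The question was whether retinal neuronal cells change their transcripts in diabetes, and whether they do so as retMECs in the same tissue do.

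Streptozotocin is taken up by pancreatic beta cells, which make insulin, and kills them, so the model is one of insulin deficiency and high blood glucose rather than of obesity. NeuN is a nuclear protein of many mature neurons. In the retina it marks ganglion cells and part of the amacrine cells, while photoreceptors and bipolar cells are mostly weakly stained or unstained. The regions were selected by staining, without separation of neuronal subtypes, and a captured region can include RNA of glia, vessels and neighbouring layers. Retinal neurons have a high demand for glucose and oxygen and depend on the vessels and glia around them, and early neuronal dysfunction is a known part of diabetic retinopathy.

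Transcripts were counted with the GeoMx Mouse Whole Transcriptome Atlas, in which each probe carries a barcode that ultraviolet light releases from the chosen region. The deposited files list probes by ID, and the reference table used here paired 0 of the IDs with a gene symbol. The neuronal identity of the regions, the presence of photoreceptor or glial RNA, and pathways such as phototransduction or oxidative phosphorylation were therefore not analysed here. Results are given as numbers of probes, with IDs for 4 probes, the pair with the smallest p in each direction. Of 20186 probes with a count somewhere in the series, 20185 had a count in at least 1 neuronal region and 16081 in all 6. In a region of bulk tissue, fewer cells of a type and less RNA per cell cannot be told apart.

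The diabetic regions were shallower than the non-diabetic regions without overlap. Total counts were 372615, 788146 and 244551 in non-diabetic regions 1, 2 and 3 and 163911, 78053 and 168298 in diabetic regions 1, 2 and 3. The shallowest, diabetic region 2, had 122833 raw reads and 1.5 aligned reads per counted molecule, against 3.86 to 11.8 in the other 5 regions. The 75th percentile of the counts over probes, by which the regions were scaled, was 16, 35 and 11 counts in the non-diabetic and 7, 4 and 7 counts in the diabetic regions. Counts were also more concentrated in diabetes. The 100 most counted probes of each region held 22.3%, 19.5% and 20.9% of the counts without diabetes and 25.5%, 25.3% and 26.8% with diabetes. When all regions were thinned to 78053 counts, these shares were 22.2%, 19.7% and 21.0% against 25.8%, 25.3% and 26.8%, and the number of probes with a count was 17536 to 17894 without and 16865 to 17219 with diabetes. The conditions therefore differed without overlap in these measures at equal depth as well. For total counts and the share of the 100 most counted probes the exact permutation p (two-sided, 3 against 3) was 0.10, the smallest this design allows, and 0.15 after Benjamini-Hochberg adjustment over 6 measures. All 6 regions were on 1 plate and in 1 sequencing run.

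**Figure D1:**
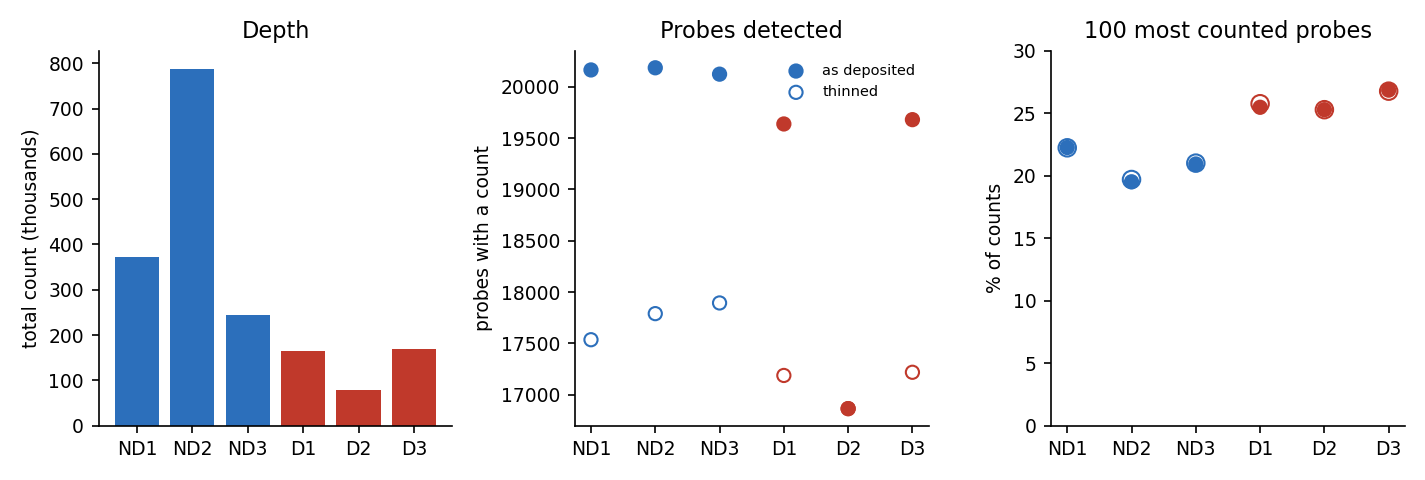
Total count on a bar axis from 0 (left), number of probes with at least 1 count (middle, axis not starting at 0) and percent of counts held by the 100 most counted probes (right) in each neuronal region, non-diabetic (ND, blue) and diabetic (D, red), with open circles for regions thinned to 78053 counts. Every diabetic region has the lower total and the higher share in the top 100, with 25.3% to 26.8% against 19.5% to 22.3%.

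In diabetic neuronal regions 45 probes were lower and 6 were higher than in non-diabetic regions, out of 4135 that passed the filter on low counts. These are 1.09% and 0.145% of the probes tested, or 1.23% in either direction. The call was made with edgeR's quasi-likelihood test on counts scaled to the 75th percentile, with Benjamini-Hochberg adjustment and a threshold of 0.05. Log2 fold changes of the 45 ran from -2.61 to -0.78, with -1.11 as the median, and 33 of them differed by over 2-fold. The 6 ran from 0.83 to 1.38, with 1.05 as the median. Over the 4135 probes the median was -0.01. In scaled counts, 42 of the 45 and 5 of the 6 did not overlap between conditions, against 7.64% of all probes tested with every diabetic region below and 5.78% with every diabetic region above. Before adjustment, p was under 0.05 for 238 lower and 153 higher probes. This balance turned with the scaling, to 181 lower and 286 higher with TMM factors and 166 lower and 319 higher with DESeq2's size factors.

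The lower probes together held 2.33% of the counts of non-diabetic region 1 (95% Wilson interval 2.28 to 2.37), 3.18% of region 2 (3.15 to 3.22) and 2.16% of region 3 (2.11 to 2.22). In diabetic regions 1, 2 and 3 they held 1.46% (1.40 to 1.52), 1.14% (1.07 to 1.22) and 1.21% (1.16 to 1.26). Every diabetic share lay below every non-diabetic one, and the share was highest in the deepest region. The 6 higher probes held 0.119% ± 0.014 of the counts without and 0.245% ± 0.025 with diabetes (SD, n = 3). These shares describe probes selected by the same counts and carry no test, and the intervals cover counting error only.

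Among the probes that rose, RTS0071288 had the smallest p. It was counted 51, 105 and 30 times in non-diabetic regions 1 to 3 and 69, 15 and 61 times in diabetic regions 1 to 3, or 32.9, 31.0 and 28.1 against 102, 38.7 and 89.9 scaled counts. Scaled counts are counts brought to a common 75th percentile of the 6 regions. The non-diabetic regions lay close together, and the 3 diabetic regions lay above them, diabetic region 2 by the least. The non-diabetic mean was 30.7 ± 2.39 and the diabetic mean 76.8 ± 33.5 (SD, n = 3), a difference of 1.38 on the log2 scale (SE 0.24; edgeR, adjusted p = 2.62e-05). The other, RTS0080373, had 71.6, 49.2 and 63.8 scaled counts without diabetes and 97.3, 175 and 131 with diabetes, with the largest value in diabetic region 2. The difference was 1.12 on the log2 scale (SE 0.22; edgeR, adjusted p = 0.0003), and it rests on 66, 68 and 89 diabetic and 111, 167 and 68 non-diabetic counts. Without non-diabetic region 2 its adjusted p from edgeR was 0.085.

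Among the probes that fell, RTS0073643 had the smallest p and the largest change. It was counted 52, 80 and 18 times in non-diabetic and 1, 4 and 2 times in diabetic regions 1 to 3, or 33.5, 23.6 and 16.9 against 1.47, 10.3 and 2.95 scaled counts. No diabetic region reached the lowest non-diabetic one, but the diabetic level rests on 7 counts in all. On the log2 scale it differed by -2.61 (SE 0.45; edgeR, adjusted p = 2.62e-05). RTS0080776 was counted 59, 104 and 57 times without and 10, 3 and 4 times with diabetes, or 38.1, 30.7 and 53.5 against 14.7, 7.74 and 5.90 scaled counts. On the log2 scale it differed by -1.99 (SE 0.36; edgeR, adjusted p = 5.04e-05), again with no overlap. Without diabetic region 3 the adjusted p from edgeR was 0.060 for RTS0073643 and 0.074 for RTS0080776.

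**Figure D2:**
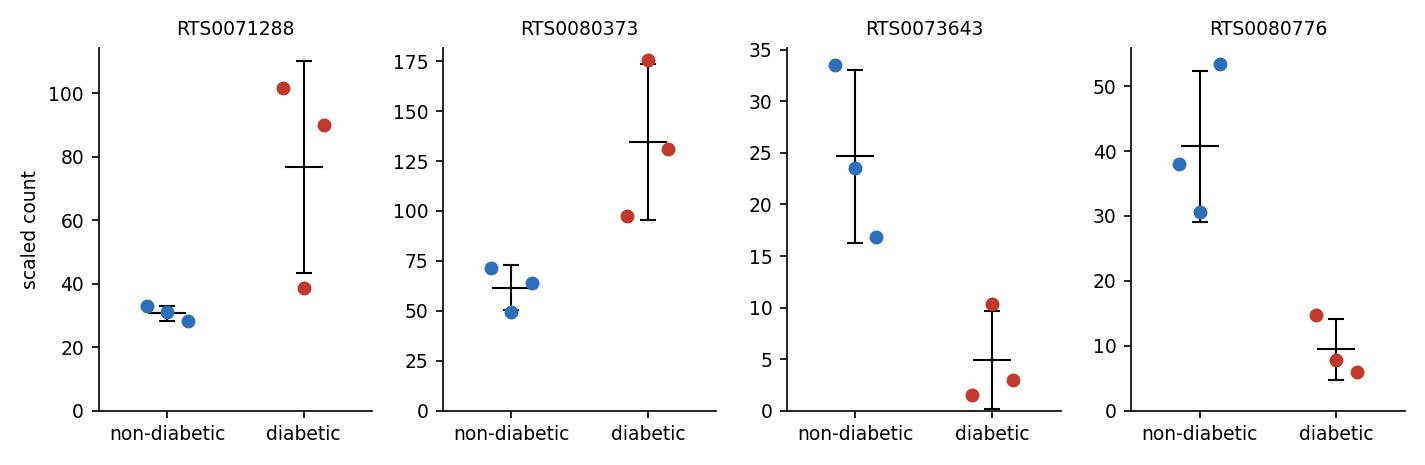
Scaled counts of the 4 named probes, RTS0071288 and RTS0080373 (higher) and RTS0073643 and RTS0080776 (lower), in the 3 non-diabetic (blue) and 3 diabetic (red) neuronal regions; each point is a region, ordered by replicate number from left to right, and bars are the mean and SD. The conditions do not overlap for any of the 4 probes, and diabetic region 2 lies closest to the non-diabetic regions for RTS0071288 and RTS0073643.

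The skew to lower probes depended on the scaling. With TMM factors, which are set on the bulk of probes, 19 probes were lower and 13 higher. With DESeq2's size factors they were 19 and 20, and with total counts 48 and 13. Over all probes the median of the log2 fold change was -0.01 in the reported setting, 0.09 with TMM and 0.11 with DESeq2's factors. All 6 higher and 19 of the 45 lower probes were called in the same direction under all 4 scalings, and every one of the 51 had the same sign under each of them. As each probe differed by at least 0.78 on the log2 scale, far more than the scalings moved the median, the sign could hardly turn. The number of calls also rested on particular regions: leaving out diabetic region 3 gave 5, and leaving out the deepest, non-diabetic region 2, gave 7. Those fits tested 7003 and 3237 probes, against 4135 with all 6 regions, so the set of probes changed too. Without the shallowest, diabetic region 2, the number of calls was 57, with 37 lower and 20 higher. Of the 51 probes, 3 were called in all 6 fits that left out a region, and these were RTS0071288 among the higher and 2 among the lower. A model of all 24 regions called 1 of 11299 probes in the neuronal comparison, RTS0073643.

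**Figure D3:**
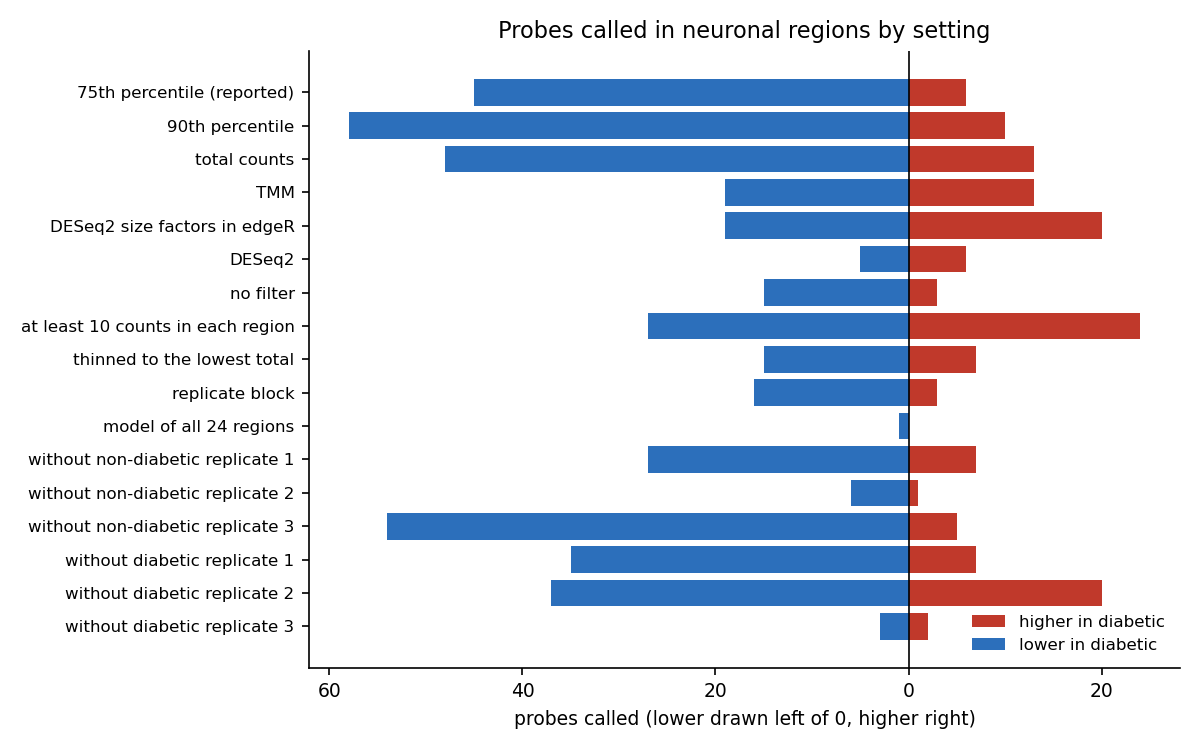
Number of probes called in diabetic against non-diabetic neuronal regions, with lower probes drawn to the left of 0 and higher probes to the right, for the reported setting and 16 others. The left bar shrinks from 45 to 19 with TMM or DESeq2's size factors, and both bars nearly vanish without diabetic region 3 or non-diabetic region 2.

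Calls were concentrated among abundant probes. When the 4135 probes were divided into 5 groups of equal size by mean level, the most abundant group held 32 of the 45 lower and all 6 higher probes, or 4.59% of its 827 probes, and the least abundant group held 1 lower and 0 higher. Median counts were 87 in non-diabetic and 27 in diabetic regions in the most abundant group, and 19 and 6 in the least abundant. The median standard error of the log2 fold change fell from 0.42 to 0.26 over the same groups, so a 2-fold change of a dim probe was often not detectable at this depth. The median log2 fold change itself moved with the level, from -0.06 in the least to 0.08 in the most abundant group. Of the 45 lower probes, 12 had fewer than 4 counts in diabetic region 2 and 4 had a count of 0.

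How far apart the conditions lay as whole profiles depended on the scale. The mean distance between conditions was 1.08 times that within them on a log scale and 1.85 times on linear scaled counts. Linear distances weigh the most counted probes most. The first of these held 3.21% to 4.45% of the counts without and 6.05% to 7.11% with diabetes. How much of the 1.85 rests on it was not tested. On log2(scaled count + 1) over the probes tested, the mean Euclidean distance was 46.3 between conditions (36.2 to 63.9 over 9 pairs), 28.3 among non-diabetic regions and 57.4 among diabetic regions. The first principal component held 54.3% of the variance and separated diabetic region 2 from the other 5 regions. The second, with 16.8%, had all 3 non-diabetic regions above 0, at 9.75 to 13.4, and all 3 diabetic regions below 0, at -16.7, -0.98 and -16.1. With all regions thinned to the same total the distances were 55.8 between conditions, 52.7 among non-diabetic and 56.5 among diabetic regions. At equal depth, on this log scale, the mean distance among diabetic regions was thus close to that between conditions. Thinning raised the non-diabetic distance from 28.3 to 52.7 and left a 75th percentile of 4 counts in each region. Counting noise therefore enters all 3 values, which cannot decide how far the conditions differ at equal depth.

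The probes that fell in diabetic neuronal regions mostly had values above 0 in diabetic retMECs, the vessels of the same tissue, though none was called there. Of the 45, 32 passed the filter in retMECs, and 29 of these had a log2 fold change above 0, with a median of 1.06. Over all 699 probes tested in retMECs, 556 were above 0, and the median was 0.37. Non-diabetic retMEC region 1 stood apart, with 2.32% of its counts in its 100 most counted probes against 9.86% to 14.7% in the other 5 retMEC regions. Without it 26 of 32 were above 0, with a median of 0.70 against -0.03 for the 826 probes then tested. Leaving out each other retMEC region gave medians from 0.83 to 1.57, the highest without non-diabetic region 3, against 0.19 to 0.65 for all probes. In retMECs edgeR called 0 of 699 probes (0%). Without adjustment, p was under 0.05 for 21 with higher and 1 with lower values. As a share of counts, the 45 probes held 0.441%, 1.21% and 1.62% in non-diabetic and 2.69%, 1.85% and 2.27% in diabetic retMEC regions 1, 2 and 3. In the kidney and the heart most values were below 0, as in neuronal regions. In renMECs 32 of 39 tested were below 0, with a median of -0.56 against -0.09 for all 9486 probes, and 5 were called lower, where 3.71% of all probes were called and 3.25% called lower. In carMECs 31 of 37 were below 0, with a median of -0.49 against -0.11 for all 3247 probes, and 4 were called lower, where 0.924% of all probes were called and 0.585% called lower. Of the 6 higher probes, 3 were tested in retMECs, where 1 was above 0 and 2 below, with a median of -0.30 against 0.37 for all probes. In renMECs 5 were tested, of which 4 were above 0 and 1 was called higher (0.464% of all). That call was lost without each of non-diabetic renMEC regions 1, 2 and 3 and diabetic renMEC regions 1 and 2. In carMECs 4 were tested, of which 3 were above 0 and 0 were called higher (0.339% of all). With each region of that organ left out in turn, the median of the lower probes stayed between -0.63 and -0.45 in renMECs and between -0.68 and -0.41 in carMECs. The 5 calls in renMECs became 0 without non-diabetic region 1, diabetic region 1 or diabetic region 3, 2 and 1 without non-diabetic regions 2 and 3, and 12 without diabetic region 2. The 4 in carMECs became 0 without non-diabetic region 2, diabetic region 1 or diabetic region 2. They became 2, 3 and 6 without diabetic region 3, non-diabetic region 1 and non-diabetic region 3. These comparisons use other regions than the neuronal one. With 3 mice per condition, however, regions of different cell types share mice and are not independent animals.

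**Figure D4:**
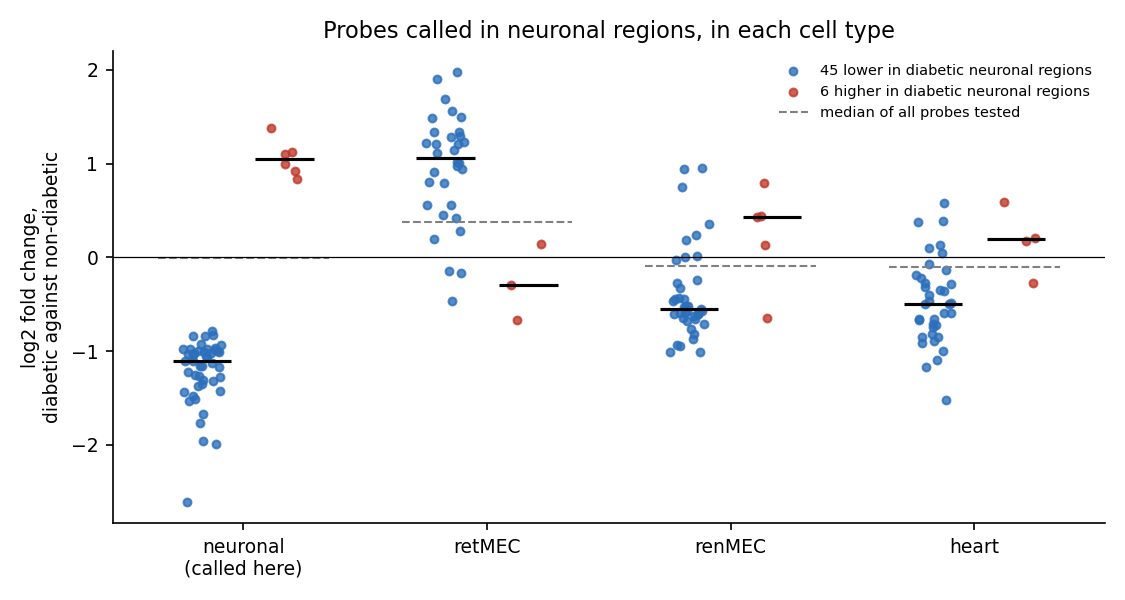
Log2 fold change in diabetes of the 45 lower (blue) and 6 higher (red) neuronal probes in each cell type, with a point per probe that passed the filter there, black bars for their medians and dashed lines for the median of all probes tested. In the neuronal column the probes were selected on the plotted values. The blue points centre on 1.06 in retMECs and on -0.56 and -0.49 in renMECs and the heart.

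The difference between cell types was tested as an interaction in 1 model of all 24 regions. These come from 3 mice per condition, and the model had no term for the mouse, so regions of 1 mouse were treated as independent. On simulated data this test recovered 0% of 2-fold and 7% of 4-fold differences against retMECs. Against renMECs it recovered 1% and 36%, and against the heart 2% and 29%. The numbers of probes below can therefore miss most differences of that size. Against retMECs the effect of diabetes differed for 32 of 11299 probes (0.283%), and for 31 of these it was smaller, that is lower or more negative, in neuronal regions. In that model the median effect over the 31, on the log2 scale, was -0.99 in neuronal regions and 1.54 in retMECs. Of the 31, 28 had been tested in neuronal regions alone and 16 were among the 45 lower probes, where 1.09% of all probes tested were called lower. The same neuronal counts entered both tests, which by itself favours this overlap. The count of 32 was 1 without non-diabetic neuronal region 2, 13 without diabetic neuronal region 2, 11 without diabetic neuronal region 3 and 3 without diabetic retMEC region 1. Leaving out non-diabetic retMEC regions 1 and 3 in turn gave 18 and 75. It was 0 of 2668 probes in a fit of the 12 retinal regions alone, where 216 effects were smaller and 45 larger in neuronal regions at p under 0.05 before adjustment. The retMEC regions were on the other plate and in the other sequencing run, and their totals ranged from 28722 to 342522. Both conditions of each cell type lay on 1 plate. Against renMECs the effect differed for 8 probes (0.0708%). It was larger in neuronal regions for 5, with median effects of 0.56 there and -2.58 in renMECs. Of these 5, only 1 had been tested in neuronal regions alone, and 0 were called there. The effect was smaller for 3, with medians of -1.80 and 1.31. Of these 3, 2 had been tested in neuronal regions alone and 1 was called, where 1.23% of all probes tested were called. Against the heart it differed for 1 (0.00885%), at 0.60 in neuronal regions and -3.80 in the heart. That probe was not called in neuronal regions and did not pass the filter in the heart. The 8 became 1, 3 and 4 without diabetic neuronal region 1, diabetic neuronal region 3 and non-diabetic neuronal region 2, and 5 and 16 without non-diabetic renMEC region 3 and diabetic renMEC region 2. The 1 against the heart became 2 without non-diabetic neuronal region 1, and 0 without each of non-diabetic neuronal regions 2 and 3, diabetic neuronal regions 2 and 3, non-diabetic heart regions 1 and 3 and diabetic heart regions 1, 2 and 3. RTS0073643 was among the 8, with a difference of -3.19 on the log2 scale (SE 0.66; edgeR, adjusted p = 0.011). In renMECs it was counted 3, 7 and 25 times without and 8, 6 and 11 times with diabetes, at 1.33 to 6.21 and 4.88 to 7.16 counts when scaled over all 24 regions. On the same scale the neuronal regions had 16.0 to 31.7 without and 1.39 to 9.76 with diabetes. The 1, 4 and 2 counts in diabetic neuronal regions were at or below those regions' 75th percentiles of 7, 4 and 7. Background probes were not identified here, so how far these low levels, and the difference of -3.19, reflect background was not tested.

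At the basal level the lower probes were mostly more abundant in neuronal regions than in MECs. On log2(scaled count + 1) in non-diabetic regions, 64.4% of the 45 were over 2-fold higher than in retMECs, 57.8% than in renMECs and 68.9% than in the heart. Over all 4135 probes tested the shares were 26.0%, 20.3% and 22.5%. The non-diabetic neuronal counts entered both this contrast and the call, which by itself favours high values there. The retMEC regions were on another plate and in another sequencing run, so cell type and plate cannot be told apart against retMECs. Non-diabetic retMEC region 1, which stood apart, is included. The 4 named probes were not alike in their basal level. RTS0071288, which rose in diabetes, had 26.6 to 31.1 counts in non-diabetic neuronal regions when scaled over all 24 regions, below 109 to 156 in non-diabetic renMECs and 103 to 134 in the non-diabetic heart. The non-diabetic retMECs, at 26.8 to 156, overlapped with the neuronal regions. On the same scale RTS0080373, which also rose, had 46.6 to 67.7 in non-diabetic neuronal regions, against 17.1 to 39.0 in retMECs, 32.9 to 51.7 in the heart and 65.4 to 75.4 in renMECs. RTS0073643, which fell, had 16.0 to 31.7 in non-diabetic neuronal regions. Non-diabetic retMECs had 9.76 to 14.6 of it, renMECs 1.33 to 6.21 and the heart 6.79 to 7.81. For RTS0080776, which also fell, the neuronal range was 29.0 to 50.6, within the 11.2 to 120 of non-diabetic retMECs. It lay above 20.4 to 28.0 in non-diabetic renMECs and 10.7 to 12.7 in the non-diabetic heart.

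The lower probes were not spread evenly over the probe IDs, a pattern chosen after the values were seen. The tested IDs numbered from 67002 to 67997 held 20 of the 45 and 0 of the 6 probes called lower and higher, among 163 of the 4135 tested, so 12.3% of that block was called against 1.23% of all probes. The median log2 fold change of the block was -0.31, and the other 20 blocks of equal width in ID number with at least 20 probes tested lay between -0.09 and 0.07. With TMM the block had a median of -0.20 over the same probes, again the lowest. The 143 probes of the block that were not called had a median of -0.18. As a share of counts these held 5.99%, 5.32% and 5.42% in non-diabetic regions 1, 2 and 3 and 6.20%, 6.46% and 5.87% in diabetic regions 1, 2 and 3. The groups overlapped in this share, which was on the whole higher in diabetes, so the 2 measures of the uncalled probes ran in opposite directions. Within the block it lay in the IDs from 67300 to 67899, where 19 of 95 probes were called lower, 81 of 95 were below 0, and the median was -0.60. With TMM 11 probes were called lower, both among the 97 tested in this window and among the 169 tested in the block (6.51%). That median was -0.83 to -0.46 with each neuronal region left out in turn and -0.51 with TMM, and the number called fell to 1 when non-diabetic region 2 was left out and to 2 when diabetic region 3 was. In retMECs 36 of 38 probes of this window were above 0, with a median of 1.03 against 0.35 for the rest, and 33 of 40 without non-diabetic retMEC region 1, with a median of 0.69. In the heart 56 of 67 were below 0, with a median of -0.40 against -0.10, and in renMECs 88 of 139, with -0.23 against -0.09. With each renMEC region left out in turn the renMEC median was -0.09 to -0.01, while that of all probes was -0.08 to -0.02. Those fits tested 170 to 203 probes of the window instead of 139. The loss of a region and the change of probes therefore cannot be told apart there. Probes of the block were also more abundant in non-diabetic neuronal than in retMEC regions, with 50.3% over 2-fold higher against 25.0% of the other probes tested. Cell type and plate cannot be told apart in that contrast. What sets these IDs apart was not tested, as the sources used here do not pair them with genes.

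**Figure D5:**
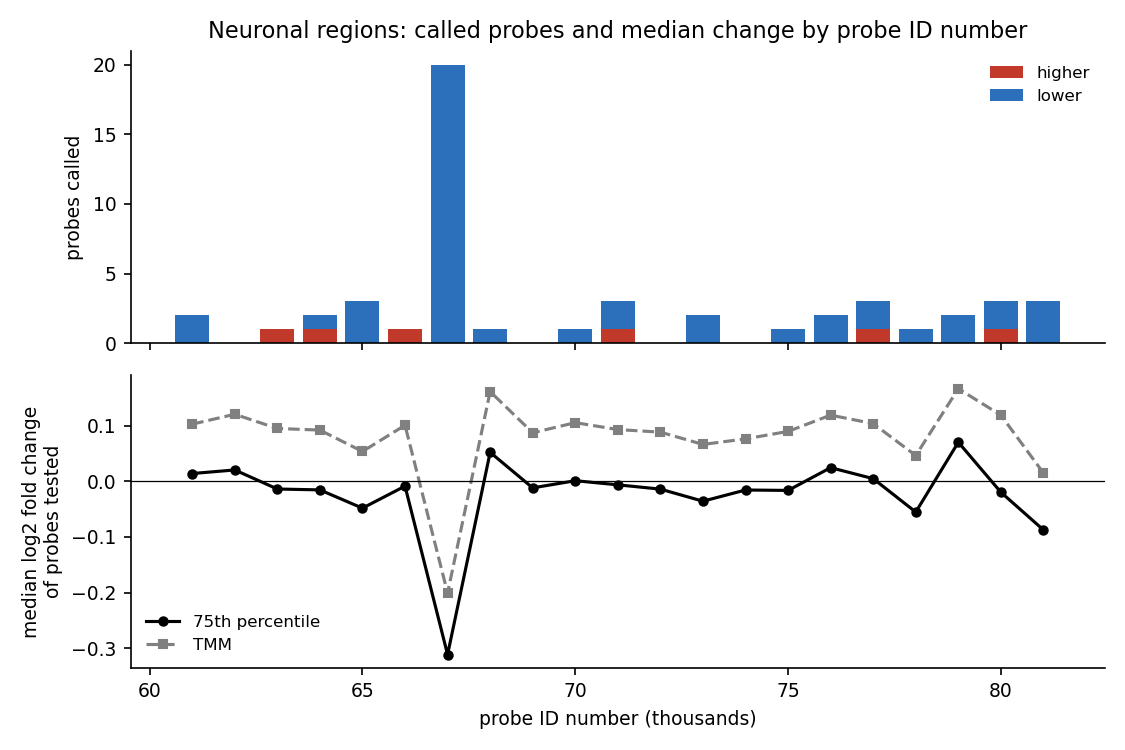
Number of probes called (top, higher in red and lower in blue) and the median over every tested probe of its log2 fold change (bottom, 75th percentile scaling and TMM) in neuronal regions, for each block of probe IDs, the x axis giving the ID number without its last 3 digits, with at least 20 probes tested. Block 67 holds 20 lower calls and has the lowest median under both scalings, -0.31 and -0.20.

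The methods' t-test was run here on scaled counts of every probe with a count in the neuronal regions. The paper ran it after quality control and exclusion of flagged genes, so the sets of features differ. The test asked for an unadjusted p under 0.05 together with a ratio of means over 1.5. It called 1253 of 20185 probes (6.21%), of which 1052 were lower and 201 higher in diabetes. After Benjamini-Hochberg adjustment 2 remained. It called 31 of the 51 probes called by edgeR. With TMM scaling it called 793 lower and 321 higher, and with total counts 1018 lower and 210 higher. Its excess of lower probes was present under each scaling, but in each case without a filter on low counts. In edgeR the balance before adjustment depended on that filter. With no filter, edgeR's p was under 0.05 for 945 lower and 290 higher probes. With at least 10 counts in each region these were 47 lower and 106 higher. Whether such a filter would change the excess among the 1253 calls was not tested.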

How the data were processed

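Each region has 1 deposited list of raw counts per probe. The authors' GeoMx NGS Pipeline 2.3.4, per the file headers, trimmed, stitched and aligned reads to probe barcodes and merged reads of the same unique molecular identifier. The deposited counts carry no quality control, exclusion of genes or 75th percentile scaling, and probes that were not listed were set to 0. Groups and replicate numbers came from the labels, and 2 diabetic heart regions are labelled by organ alone.

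The main test was edgeR 4.0.16 in R 4.3.3 (robust quasi-likelihood, filter at a minimum count of 10, 75th percentile factors), on the 6 neuronal regions and, for differences between cell types, on 24 regions. Scaled counts are counts times the geometric mean of the 75th percentiles over the region's own. Standard errors were derived from the fold change and F statistic. DESeq2 1.42.0, other scalings, filters, thinning (seed 1), a replicate block and leaving out regions were alternatives, and the 90th percentile, thinning with TMM, TMM without each region, and the lists in the other cell types without each of their regions were chosen after seeing the data. The tests were checked on simulated data in which 200 probes were changed. The neuronal test recovered 39% of 2-fold and 81% of 4-fold changes. The interaction recovered 0% and 7% against retMECs, 1% and 36% against renMECs and 2% and 29% against the heart. The probes named are those with the smallest p past the threshold, 2 in each direction. The members and lists were chosen with earlier results of these data known. Gene lists drawn up for this work needed symbols and were not tested. Replicates differed by more than sampling noise, with a chi-square per degree of freedom of 1.13 to 1.60 between pairs.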

Additional observations from a re-analysis of the deposited data

Results flagged for a closer look

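The effect of diabetes differed between neuronal regions and another cell type, by an interaction term of edgeR's test, for 32 probes against retMECs, 8 against renMECs and 1 against the heart. Of the named probes, RTS0073643 differed from renMECs in this way, by -3.19 on the log2 scale. No formal test for outlying regions was made, as each group held 3 regions.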

How the results depend on the processing

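The 51 calls in neuronal regions became 32 with TMM, 11 with DESeq2, 18 with no count filter, 22 with regions thinned to the lowest total, 12 with thinning and TMM, and 1 in the model of 24 regions. Same-direction calls shared with the 51 were 25, 9, 16, 17, 8 and 1 in that order. All calls numbered 39, 61, 51 and 68 with DESeq2's size factors, total counts, at least 10 counts in each region and the 90th percentile, the last 3 with 48, 27 and 58 lower, and of these calls 25, 48, 27 and 49 were shared with the 51. Leaving out a region gave 5 to 59 calls. With TMM it gave 4 to 63, with 33, 7 and 4 without non-diabetic regions 1 and 2 and diabetic region 3. A block for the replicate number gave 19 calls, 16 lower. Same-numbered regions correlated at -0.16, -0.08 and 0.07 in their deviations from the group means, and other pairs at -0.12 to 0.20. With 3 regions per group these values cannot decide whether the numbers pair the regions. The effect differed from retMECs for 0, from renMECs for 20 and from the heart for 2 probes in fits of the 12 regions concerned. With DESeq2 it differed from renMECs for 23 and from the heart for 0, and from the heart for 0 with TMM, 2 with total counts and 0 with the replicate block. Leaving out a region gave 1 to 75 probes against retMECs, 1 to 16 against renMECs and 0 to 2 against the heart. The ratio of distances between to within conditions was 1.08, and 1.85 on linear scaled counts, where the most counted probes weigh most. The 4 named probes kept their direction under each alternative that tested them. The depth of the diabetic regions, with a 75th percentile of 4 to 7 counts, limits all of these values.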

Other observations

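The most counted probe was the same in all 6 neuronal regions and held 3.21% to 4.45% of the counts without and 6.05% to 7.11% with diabetes. It was not among the 51 probes called by edgeR. Of the 140 probes among the 100 most counted of any neuronal region, 67 were among the 100 most counted of all 6.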
